A study of Mus musculus with 6 samples.

Results

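Genes of lipid-associated and recruited macrophages were followed in the liver of Fra-1hep mice, which overexpress the transcription factor subunit Fra-1 in hepatocytes. The genes were Trem2, Tyrobp, Gpnmb, Cd9, Cd63, Lgals3, Itgax, Itgam, Cd68 and Ly6c2, and their probes were found through the RefSeq accession that the scanner files give for each probe. Of these 10 genes, 8 had a probe, with 10 probes in all among the 55681 distinct probes of the array. Cd68 and Ly6c2 had no probe with a matching accession, so no value is given for them. The Fra-1hep mice were on the C57BL/6J background, untreated, and 26 to 28 weeks old, and were hybridised as 5 single livers, with a pool of Fra-1hep livers on a sixth array. The reference was pooled liver RNA of 5 wild-type C57BL/6J mice on chow, of the same age. That pool counts as 1 control sample, so the spread between wild-type mice was not measured. The sources used here do not give the promoter or allele that drives Fra-1.

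Total liver RNA was measured, so a lower level may come from fewer cells of a type or from less RNA per cell, and these cannot be told apart. Mice 2 and 3 gave nearly the same profile: their probe-by-probe differences were 1.14 times those of replicate spots within an array, against 1.65 to 2.33 times in the other pairs of mice. They were therefore averaged and counted as 1 sample, which left 4 mouse samples and the dye-swapped array. Nothing in the labels states that they came from separate litters or RNA preparations, and p-values measure only the spread between these samples. The fitted value is the mean of the dye-swapped array's ratio and the average of the 4 mouse samples. A probe's own spread in the fit comes from the 4 mouse samples alone. That of the dye-swapped array was not measured, and the p-values take it to be the same. No array had a saturated spot, and the share of probes well above background was 48.5% to 58.9% in Fra-1hep channels, against 45% to 50.7% in wild-type channels. The Fosl1 probe A_51_P308796, for the gene that encodes Fra-1, was well above background in neither channel on any array (0 of 6). Its log2 ratio was -0.07 ± 0.06 (SE), with an adjusted p of 0.655 in the fit without a filter on dim probes. The overexpression named in the labels was thus not visible through that probe, and the sources used here do not say whether the probe lies within the transgene.

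In liver, resident macrophages are the Kupffer cells, and monocytes from the blood can add further macrophages. Macrophages that take up lipid and cell debris are known for a program led by Trem2, a lipid-sensing surface receptor that signals through the adaptor DAP12, the product of Tyrobp. The program also includes the lysosomal glycoprotein Gpnmb, the tetraspanins Cd9 and Cd63 and the galectin Lgals3, while Itgax and Itgam encode the alpha chains of leukocyte integrins. Fra-1 pairs with Jun proteins to form AP-1, which binds a short DNA motif.

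Because the overexpressed protein is an AP-1 subunit, the promoters of the member genes were searched on both strands for the AP-1 letters TGANTCA. RefSeq windows from 250 bases before to 50 bases after the gene start (build GRCm38.p6) were available for 9 of the 10 genes, and Tyrobp had no entry. The motif occurred in 4 of the 9 genes, Trem2, Gpnmb, Itgax and Cd68, and in 7.81% of 32851 promoters in the same table. The first 3 are shown because they had measured probes, with the motif in capitals and the remainder in lower case, on the plus strand of chr17:48346151-48346450, chr6:49036268-49036567 and chr7:128129300-128129599. The motif starts at position -9 from the gene start in Trem2, at 8 in Gpnmb and at -56 in Itgax.
Trem2: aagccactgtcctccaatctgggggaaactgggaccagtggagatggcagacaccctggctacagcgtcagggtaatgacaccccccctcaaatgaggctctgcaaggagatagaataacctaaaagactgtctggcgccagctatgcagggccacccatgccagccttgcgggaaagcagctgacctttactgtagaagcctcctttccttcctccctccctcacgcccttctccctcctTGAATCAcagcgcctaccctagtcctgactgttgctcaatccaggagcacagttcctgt
Gpnmb: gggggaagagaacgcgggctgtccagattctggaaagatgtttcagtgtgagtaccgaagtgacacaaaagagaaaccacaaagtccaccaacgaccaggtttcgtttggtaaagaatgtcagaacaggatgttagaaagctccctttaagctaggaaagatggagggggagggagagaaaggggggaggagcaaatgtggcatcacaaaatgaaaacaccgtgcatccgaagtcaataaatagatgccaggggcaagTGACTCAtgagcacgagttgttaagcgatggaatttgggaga
Itgax: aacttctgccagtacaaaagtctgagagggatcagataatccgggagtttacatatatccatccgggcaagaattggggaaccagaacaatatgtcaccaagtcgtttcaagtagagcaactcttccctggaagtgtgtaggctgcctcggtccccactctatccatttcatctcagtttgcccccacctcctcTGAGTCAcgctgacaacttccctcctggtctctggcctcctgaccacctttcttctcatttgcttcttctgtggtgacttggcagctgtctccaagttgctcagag
In liver, Trem2 rose, Itgax fell and Gpnmb did not pass the test. The PU.1 letters GAGGAAG, named for a factor of myeloid cells, occurred in 4 of the 9 genes (Trem2, Cd63, Ly6c2 and Itgam) and in 13.6% of all promoters. The letters TCATGTG, for the lysosomal regulator MITF, occurred in 0 of the 9 and in 3.77% of all promoters. A match is a description of letters in the window, and binding was not measured. Fra-1 is overexpressed in hepatocytes, and the cells that made these transcripts were not separated. A link between the motif and the changes was not tested.

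The macrophage genes split in direction in Fra-1hep liver. Trem2 and Cd63 rose by 1.40-fold and 1.44-fold, whereas Itgax and Tyrobp fell, by 1.92-fold and 1.46-fold. Of the 10 member probes, 2 were higher, 2 were lower and 6 did not pass an adjusted p of 0.05 in limma's moderated test with Benjamini-Hochberg adjustment over 30110 probes. Over all tested probes, 5.47% were called higher and 6.00% lower. The median log2 ratio of the member probes was 0.20, against 0.01 over all tested probes. Probes above 0 on all 6 arrays numbered 4 among the members and 13.3% of all tested probes, and probes below 0 on all 6 arrays numbered 2 among the members and 12.2% of all. All 10 probes passed the filter on low signals, but Gpnmb and the Itgam probe A_55_P1977926 passed it only through the Fra-1hep channel. With arrays centred on their median in place of loess normalisation, 74.3% of all called probes were higher, against 47.7%, and the direction of the 4 called members was the same.

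**Figure D1:**
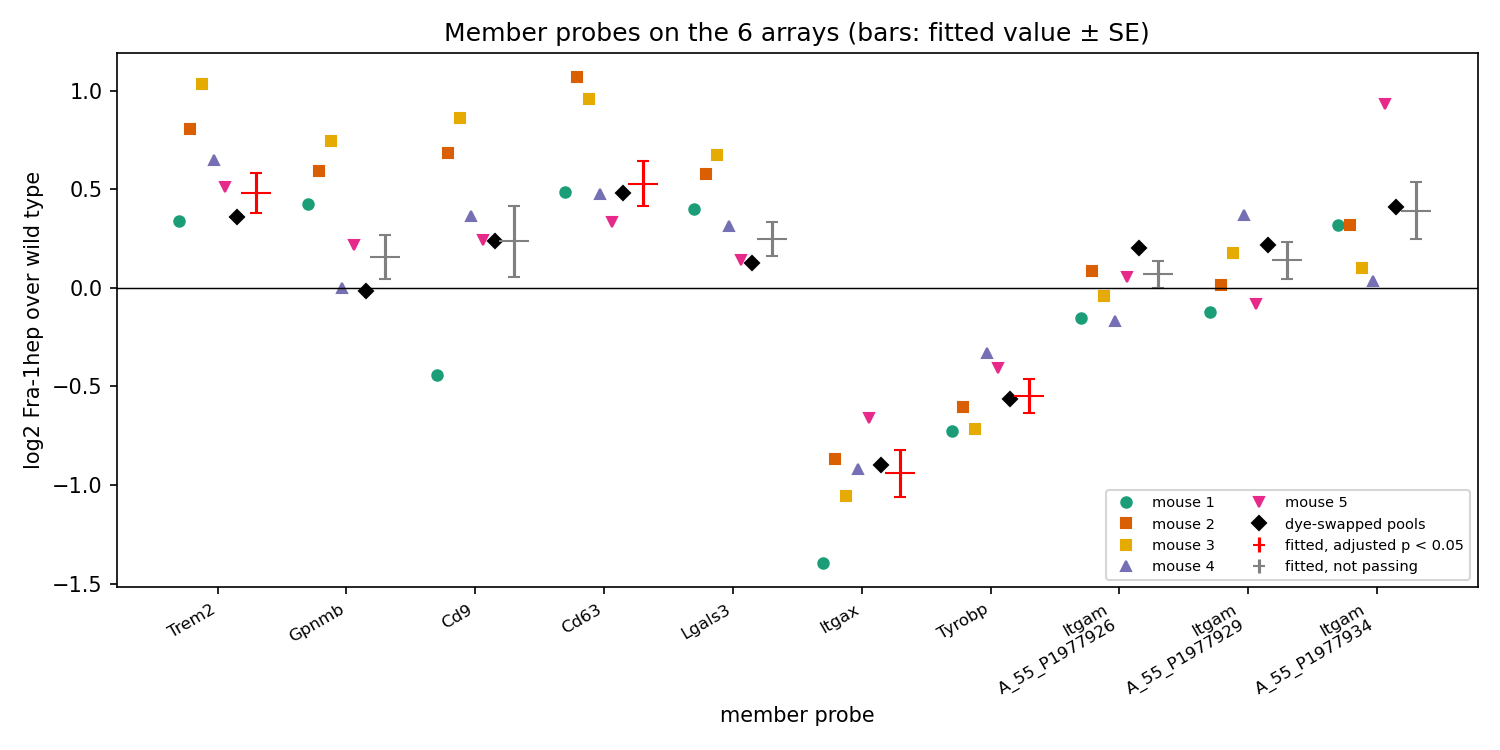
The log2 ratio of Fra-1hep over wild type (vertical axis) is plotted for each of the 10 member probes on the 5 mouse arrays and the dye-swapped array of pools, with the fitted value and its standard error as a cross with bars, red where the adjusted p is below 0.05. Trem2 and Cd63 lie above 0 on all 6 arrays, Itgax and Tyrobp lie below 0 on all 6, and the 3 Itgam probes spread around or above 0.

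Trem2, the receptor, was higher on every array, while Tyrobp, which encodes the adaptor that carries its signal, was lower on every array. The processed signal of Trem2 (probe A_55_P1962937) in the Fra-1hep channel was 265.8, 499.7, 542.6, 357.7 and 242.1 in mice 1 to 5 and 299.6 in the Fra-1hep pool, against 183.1, 237.1, 231.2, 193.4 and 158.5 for the wild-type pool with each mouse and 206.9 with the Fra-1hep pool. Mice 2 and 3 had the highest Trem2 signals, and the lowest Fra-1hep signal lay just above the highest wild-type signal. The fitted log2 ratio of Trem2 was 0.48 ± 0.10 (SE, 4 mouse samples and the pool array), with an adjusted p of 0.019, and the SD of the 4 mouse samples was 0.24. Processed signals are in arbitrary units, are compared only within a probe, and for the wild-type pool vary between arrays through measurement alone, since the same RNA was used.

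Tyrobp (probe A_51_P261517) had processed signals of 2842.4, 3640.5, 4008.2, 3994.9 and 3349.5 in mice 1 to 5 and 3157.1 in the Fra-1hep pool, against 4917.3, 5597.4, 6305.1, 5096.0 and 4394.9 for the wild-type pool with each mouse and 4670.9 with the Fra-1hep pool. The Fra-1hep and wild-type signals of Tyrobp did not overlap. The share of all tested probes without such overlap was not computed, here or for the other members. Its log2 ratio was -0.55 ± 0.09 (SE), with an adjusted p of 0.00591. Within each array the log2 ratio of Trem2 exceeded that of Tyrobp by 0.92 to 1.75. From the authors' deposited table of log2 ratios, the call of Trem2 ended (0.67, adjusted p = 0.0629), and so did that of Tyrobp (-0.55, adjusted p = 0.0582).

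**Figure D2:**
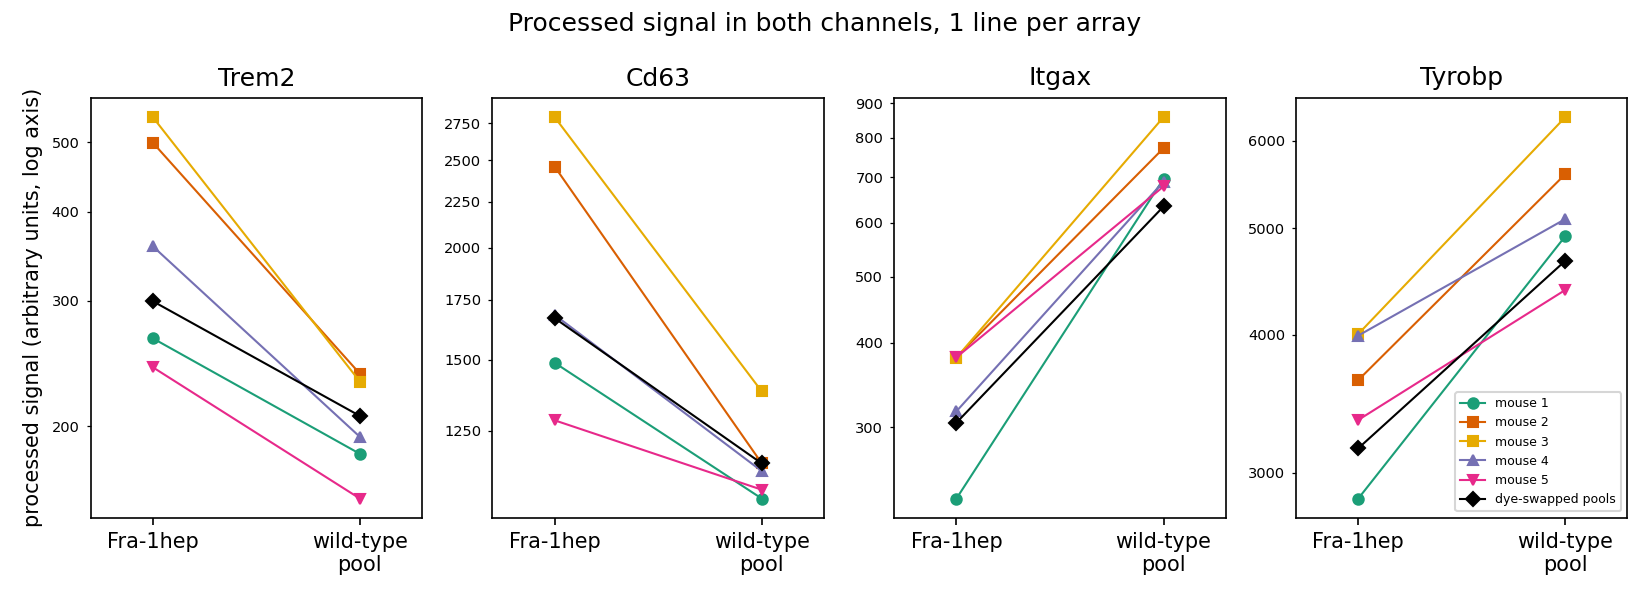
The processed signal of Trem2, Cd63, Itgax and Tyrobp (vertical log axis, arbitrary units) is plotted in the Fra-1hep channel (left) and the wild-type channel (right) of each array, with 1 line per array. On all 6 arrays the lines of Trem2 and Cd63 descend to the wild-type pool, and those of Itgax and Tyrobp climb to it.

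Among the lysosomal and tetraspanin genes, Cd63 was the member that passed the test, and Gpnmb, Cd9 and Lgals3 did not. Cd63 encodes a tetraspanin of late endosomes and lysosomes that many cell types make. Its probe A_55_P2000224 gave processed signals of 1488.5, 2461.5, 2794.3, 1682.9 and 1284.3 in mice 1 to 5 and 1668.8 in the Fra-1hep pool, against 1050.9, 1150.5, 1383.3, 1127.6 and 1075.0 for the wild-type pool with each mouse and 1150.0 with the Fra-1hep pool. Mice 2 and 3 stood highest, and only the lowest mouse, mouse 5, lay within the range of the wild-type signals. The log2 ratio of Cd63 was 0.53 ± 0.12 (SE), with an adjusted p of 0.023. The authors' deposited table gave 0.57 with an adjusted p of 0.113, which ended the call. The log2 ratios of Trem2 and Cd63 stayed close within an array, with differences of -0.26 to 0.18.

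Gpnmb, a transmembrane glycoprotein of lysosomes in lipid-loaded macrophages, was dim. Its probe A_51_P438967 had processed signals of 27.5, 41.7, 36.1, 11.1 and 13.2 in mice 1 to 5 and 14.7 in the Fra-1hep pool, against 4.8, 4.4, 4.5, 5.9 and 6.4 for the wild-type pool with each mouse and 13.9 with the Fra-1hep pool. It was well above background in mice 1, 2, 3 and 5 and not well above background in the wild-type channel on any array (0 of 6). Mouse 4 and the pools were near 0 on the log2 scale. The fitted log2 ratio of 0.16 ± 0.11 (SE) had an adjusted p of 0.445, and since the wild-type level was not measured above background, no fold is given for Gpnmb.

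Lgals3, which encodes the secreted lectin galectin-3, had log2 ratios of 0.40, 0.58, 0.67, 0.31 and 0.14 in mice 1 to 5 and 0.13 on the pool array (probe A_55_P2171116). All 6 arrays were above 0, with the lowest values in mouse 5 and the pools. The fitted value was 0.25 ± 0.09 (SE), with an adjusted p of 0.124. Cd9, a surface tetraspanin that is also made by platelets and bile duct cells, had log2 ratios of -0.44, 0.68, 0.86, 0.36 and 0.24 in mice 1 to 5 and 0.24 on the pool array (probe A_51_P320852). Mouse 1 was below 0 and the other arrays were above it. The fitted value of Cd9 was 0.24 ± 0.18 (SE), with an adjusted p of 0.473, and the SD of the 4 mouse samples was 0.51.

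Itgax, which encodes CD11c, the integrin alpha chain of dendritic cells and of some macrophages, showed the largest fitted change of the 10 member probes. Its probe A_51_P303424 gave processed signals of 235.8, 380.6, 380.0, 316.9 and 380.5 in mice 1 to 5 and 304.9 in the Fra-1hep pool, against 696.4, 772.9, 858.7, 690.1 and 678.8 for the wild-type pool with each mouse and 634.3 with the Fra-1hep pool. Every Fra-1hep signal lay far below every wild-type signal, and mouse 1 was the lowest. The log2 ratio of Itgax was -0.94 ± 0.12 (SE), with an adjusted p of 0.00218. The authors' deposited table gave -1.11 with an adjusted p of 0.028, so the call stood. The log2 ratio of Trem2 exceeded that of Itgax by 1.17 to 2.09 within an array, and the excess of Cd63 over Itgax was 1.00 to 2.01.

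Itgam, which encodes CD11b, the integrin alpha chain of monocytes, macrophages and neutrophils, had 3 probes, and none passed the test. The brightest, A_55_P1977934, had processed signals of 3046.0, 3595.2, 3593.2, 2977.3 and 6727.3 in mice 1 to 5 and 3487.6 in the Fra-1hep pool, against 2416.8, 2969.4, 3245.4, 2867.9 and 3384.5 for the wild-type pool with each mouse and 2559.0 with the Fra-1hep pool. Mouse 5 had the highest signal, and the range of the remaining signals overlapped that of wild type. Within arrays, all 6 log2 ratios of this probe were above 0, at 0.03 to 0.93. This probe had a log2 ratio of 0.39 ± 0.14 (SE), with an adjusted p of 0.133. The probes A_55_P1977929 and A_55_P1977926 had log2 ratios of 0.14 ± 0.09 (SE, adjusted p = 0.412) and 0.07 ± 0.07 (SE, adjusted p = 0.596), and each had arrays on both sides of 0. By log2 ratio, mice 2 and 3 were the highest for Trem2, Gpnmb, Cd9, Cd63 and Lgals3. By the same measure, mouse 5 was the highest for Itgax and for the bright Itgam probe. Without mice 2 and 3, an alternative added after seeing the data, Trem2 was 0.43 (adjusted p = 0.0196), Cd63 0.46 (adjusted p = 0.00913), Itgax -0.94 (adjusted p = 0.007) and Tyrobp -0.53 (adjusted p = 0.0151) on the log2 scale.

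The 6 arrays lay on 3 slides, and 1 slide held mice 3 and 4 with the dye-swapped pools. Within that slide the log2 ratio was 0.60 for Trem2 (adjusted p = 0.00514), 0.60 for Cd63 (adjusted p = 0.00823), -0.94 for Itgax (adjusted p = 0.000208) and -0.54 for Tyrobp (adjusted p = 0.0078). Cd9 passed there as well, at 0.42 with an adjusted p of 0.0365. A probe's own spread in this fit came from mice 3 and 4 alone, so its p-values carry little weight. With slide as a random block the values were 0.51 for Trem2 (adjusted p = 0.0138), 0.57 for Cd63 (adjusted p = 0.0171), -0.94 for Itgax (adjusted p = 0.000697) and -0.56 for Tyrobp (adjusted p = 0.0023). That fit counted mice 2 and 3 as separate samples.

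**Figure D3:**
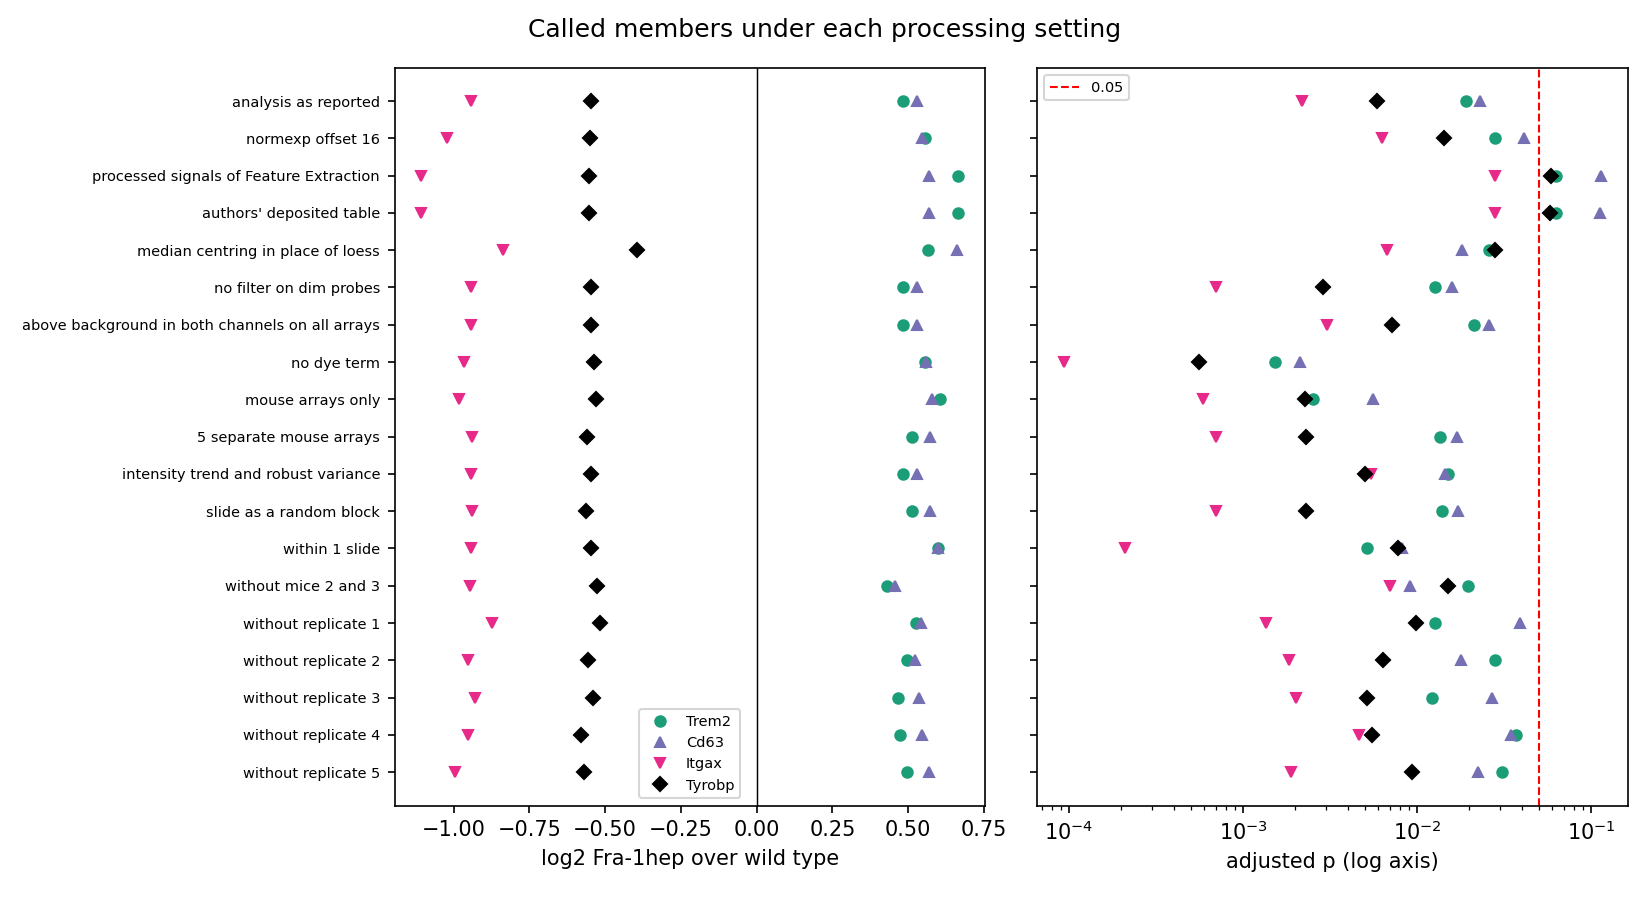
The log2 ratio of Fra-1hep over wild type (left) and the adjusted p on a log axis (right) are plotted for Trem2, Cd63, Itgax and Tyrobp under the reported analysis and each alternative. No symbol changes side of 0 and Itgax stays below 0.05 throughout, whereas Trem2, Cd63 and Tyrobp lie above 0.05 with Feature Extraction's processed signals and with the authors' deposited table.

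Markers of other liver and blood cells moved beside these genes. Markers made by all macrophages were lower in 12 of 15 genes and higher in 0, with a median log2 ratio of -0.45, against 0.00 over the 13955 tested genes, of which 7.74% were higher and 8.18% lower by their brightest probe. Fcgr4, an IgG Fc receptor, fell by 1.36 on the log2 scale (adjusted p = 0.000578), and Adgre1, a surface receptor of mature macrophages, fell by 0.58 (adjusted p = 0.00773). The summed processed signal of the macrophage markers was 28293 to 34226 in Fra-1hep liver, against 35576 to 48031 in the wild-type pool. Kupffer cell markers were lower in 11 of 14, among them Timd4, an apoptotic cell receptor (-0.67), and Cd5l, a secreted scavenger protein (-0.75), and their summed signal was 47535 to 76919 in Fra-1hep liver, against 86063 to 122867 in the wild-type pool. Neither marker sum overlapped between the groups. The sums of neutrophil, dendritic cell and endothelial markers did not overlap either. Of the gene lists described below, the same held for TREM2 and DAP12 signalling, growth factors and chemoattractants, and leukocyte integrins. The sums of all other lists overlapped. For endothelial markers the sum was 14469 to 18032 in Fra-1hep liver, against 22645 to 29185 in the wild-type pool. The wild-type range is that of 1 pool measured on each array. The calls numbered 4 lower macrophage markers and 2 lower Kupffer cell markers from the authors' deposited table. The part of these marker levels in the changes of Itgax and Tyrobp was not tested.

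Neutrophil markers went the other way, with 10 of 13 higher, 0 lower and a median log2 ratio of 1.76. Over all tested genes, 7.74% were higher and 8.18% lower. S100a9, a calcium-binding protein of neutrophil granules and cytoplasm, rose by 3.53 ± 0.39 (log2, SE; adjusted p = 0.00132), and Mpo, the granule enzyme myeloperoxidase, rose by 3.48. Cxcr2, the chemokine receptor of mature neutrophils, was well above background on 5 of 6 arrays for Fra-1hep RNA and on 0 of 6 for the wild-type pool. Cxcr2 and Mmp8, which count among the 10, passed the filter on low signals only through the Fra-1hep channel. The markers that did not pass the test were Csf3r at 0.09 (log2; adjusted p = 0.371), Mmp9 at 0.46 (adjusted p = 0.0553) and Prtn3 at -0.09 (adjusted p = 0.802). The call of Mpo ended with an intensity trend and robust variance (adjusted p = 0.0546). The summed neutrophil signal was 38608 to 84506 in Fra-1hep liver, against 26195 to 35381 in the wild-type pool. The part of these cells in the levels of Itgam, Cd63 and Lgals3 was not tested. Dendritic cell markers were lower in 6 of 8, including H2-Ab1, an MHC class II chain (-0.56), and Batf3, a transcription factor of conventional dendritic cells (-0.62). Their summed signal was 11931 to 17434 in Fra-1hep liver, against 17937 to 25104 in the wild-type pool. Their part in the level of Itgax was not tested. Of the dendritic cell markers, 2 were lower in the authors' deposited table and 3 with median centring.

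Markers of 5 further cell types were measured, beside 7.74% higher and 8.18% lower over all tested genes. Platelet markers were higher in 2 of 7, with a summed signal of 989 to 1849 in Fra-1hep liver, against 841 to 1126 in the wild-type pool, and the megakaryocyte chemokine Pf4 rose by 0.67 (log2; adjusted p = 0.0134). Cholangiocyte markers were higher in 3 of 6, with a summed signal of 1154 to 2102 in Fra-1hep liver, against 928 to 1289 in the wild-type pool. The called genes were Cdh1 (0.77), Cldn7 (0.62) and the adhesion molecule Epcam (0.41). Krt19 (0.21, adjusted p = 0.0824), Krt7 (0.19, adjusted p = 0.0981) and Sox9 (0.06, adjusted p = 0.657) did not pass. The part of both cell types in the level of Cd9 was not tested. Lymphocyte markers were lower in 5 of 9, led by the cytotoxic granule protease Gzma (-1.50), and endothelial markers were lower in 7 of 9, led by the sinusoidal lectin Clec4g (-0.95). Cd8a, which counts among the 5 lymphocyte markers, passed the filter on low signals only through the wild-type channel. The authors' deposited table called 1 platelet marker higher, and 3 lymphocyte markers and 1 endothelial marker lower. Over all tested probes that table gave 817 higher and 807 lower, against 1647 and 1808 in the reported analysis. Hepatocyte markers were higher in 2 of 9 and lower in 2, with a median of 0.15. The authors' deposited table gave 0 higher and 1 lower of these, and median centring and the mouse arrays alone each gave 4 higher and 1 lower. Their summed signal, with that of albumin (Alb) included, was 427434 to 637759 in Fra-1hep liver, against 461907 to 668416 in the wild-type pool.

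**Figure D4:**
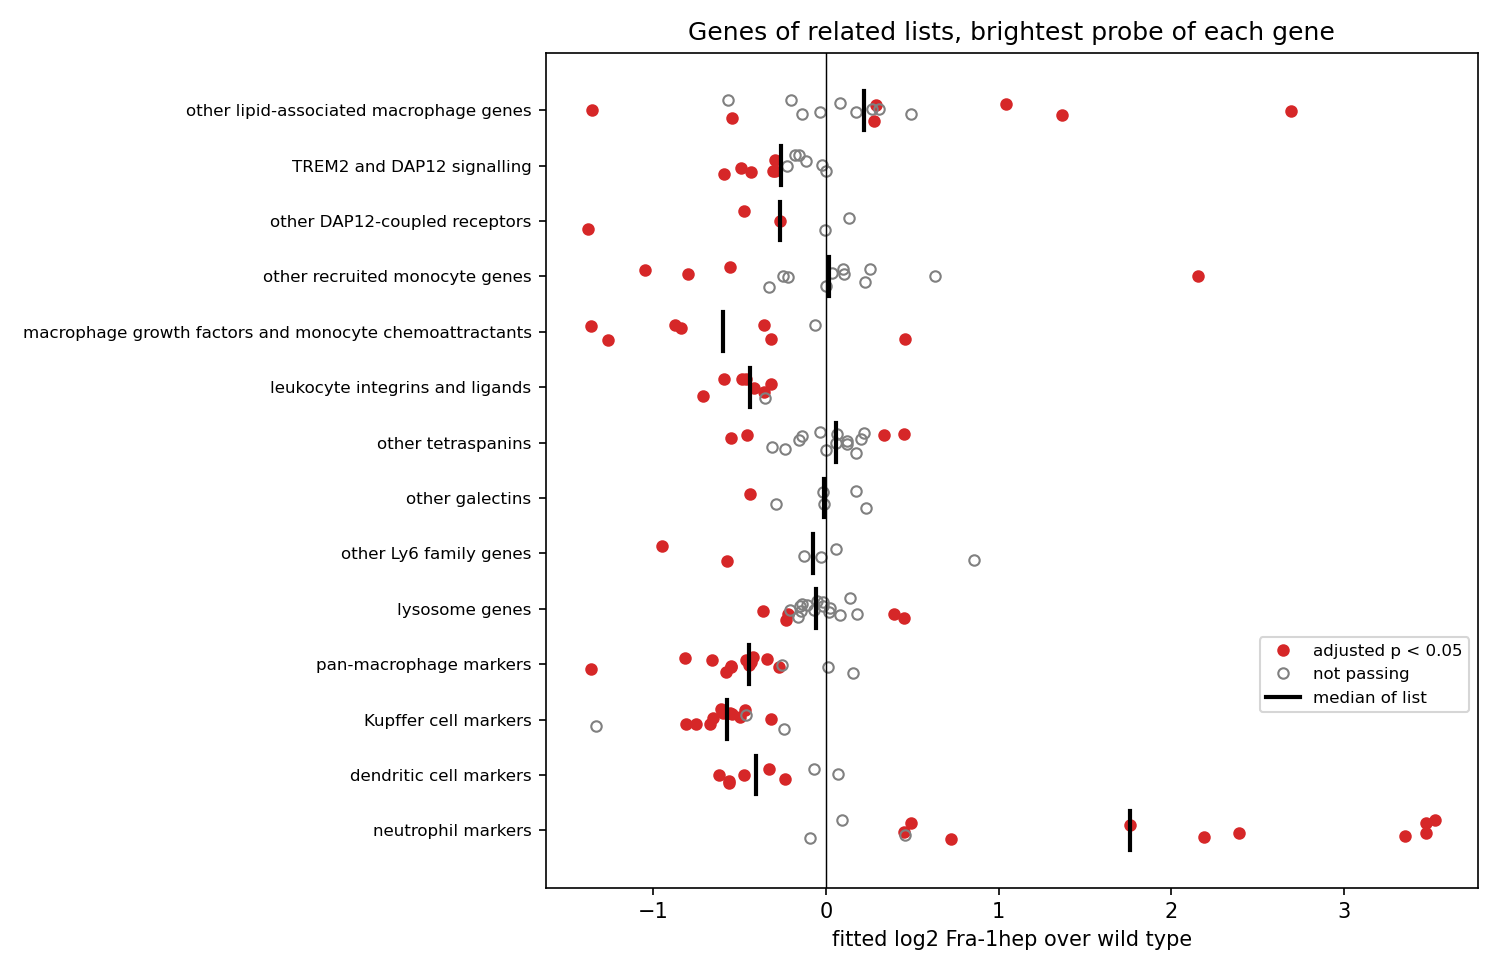
Each point is the fitted log2 ratio of Fra-1hep over wild type (horizontal axis) of 1 gene of a related list, by its brightest probe, filled red where the adjusted p is below 0.05, with a black bar at the list's median. The lists of macrophage, Kupffer cell, dendritic cell and leukocyte integrin genes lie mostly left of 0, the neutrophil markers lie mostly right of it, and the other lipid-associated macrophage genes lie on both sides.

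Other genes of the lipid-associated macrophage program split in direction as well. Of 16 tested, 5 rose, 2 fell and 9 did not pass, with a median log2 ratio of 0.22. Over all tested genes, 7.74% were higher and 8.18% lower by their brightest probe, and this share applies to each list that follows. Atp6v0d2, a subunit of the proton pump that acidifies lysosomes, rose 6.48-fold (log2 2.70 ± 0.29, SE; adjusted p = 0.0011), with values of 1.58 to 3.50 over the 6 arrays. Lpl, which releases fatty acids from lipoproteins, rose 2.58-fold (log2 1.37 ± 0.15; adjusted p = 0.00136), and Spp1, the secreted protein osteopontin, rose 2.06-fold (log2 1.04 ± 0.09; adjusted p = 0.000396). All 6 arrays were above 0 for each of these 3 genes. The other tested probe was at 1.71 for Atp6v0d2 and 0.82 for Lpl, on the same side but smaller. Plin2, which coats lipid droplets in hepatocytes as well as macrophages, fell by 1.36 ± 0.08 (log2, SE; adjusted p = 0.000104). Apoe, the lipid-carrying apolipoprotein E, did not pass at 0.27 (adjusted p = 0.0877), and its direction differed with the dye orientation: the log2 ratio was 0.78 to 1.22 in the 5 mice and -0.48 on the dye-swapped array of pools. Cd36 (0.31, adjusted p = 0.0951) and Fabp5 (-0.57, adjusted p = 0.239) did not pass either, and both had arrays on either side of 0. The authors' deposited table gave 3 genes higher and 1 lower, and the number higher was 3 without mouse 4 and 3 with a background offset of 16.

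Genes that act with or after Trem2 and DAP12 were lower or did not pass. Of 12 signalling genes, 0 rose and 6 fell, with a median log2 ratio of -0.26, against 7.74% higher and 8.18% lower over all tested genes. Syk, the tyrosine kinase that DAP12 recruits, fell by 0.59 ± 0.07 (log2, SE; adjusted p = 0.0018), with values of -0.66 to -0.36 over the arrays. Ptpn6, the phosphatase SHP-1, fell by 0.49 ± 0.09 (adjusted p = 0.0113), and Vav1, a guanine nucleotide exchange factor, fell by 0.43 ± 0.10 (adjusted p = 0.0299). Btk, a kinase of B cells and myeloid cells, fell by 0.30 ± 0.08 (adjusted p = 0.0472), but its call ended without mouse 2, 4 or 5, with adjusted p-values of 0.0544, 0.0514 and 0.0547, and its other probe was at -0.06. Adam10 (-0.02) and Adam17 (0.00), the proteases that shed TREM2 from the cell surface, did not pass. The number lower was 2 from the authors' deposited table, 2 with median centring, 3 with a background offset of 16 and 3 without mice 2 and 3.

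Other receptors that couple to DAP12 gave 0 higher and 3 lower among 5 tested. Sirpb1a, an activating signal regulatory protein, fell by 1.38 ± 0.15 (log2, SE; adjusted p = 0.00115), and Pilrb1, a paired immunoglobulin-like receptor, fell by 0.48 (adjusted p = 0.00542). Treml4, a TREM family receptor, fell by 0.27 (adjusted p = 0.0342), and its call ended without mouse 1 (adjusted p = 0.0547) or mouse 5 (adjusted p = 0.0564). Trem1, an amplifier of inflammation in neutrophils and monocytes, was at 0.00 (adjusted p = 0.985).

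Among other genes of recruited monocytes, 1 of 14 rose and 3 fell, with a median log2 ratio of 0.02. Chil3, a chitinase-like secreted protein that neutrophil precursors also make, rose 4.46-fold (log2 2.16 ± 0.43, SE; adjusted p = 0.0155), with values of 0.49 to 3.22 over the arrays, and mouse 5 was the lowest. Nr4a1, a nuclear receptor required for patrolling monocytes, fell by 1.05 ± 0.17 (adjusted p = 0.00663). Spn, the sialoglycoprotein CD43, fell by 0.80 ± 0.10 (adjusted p = 0.00236; other probe -0.21), and Ms4a6c, a membrane protein, fell by 0.56 ± 0.06 (adjusted p = 0.000994). The chemokine receptors Ccr2 (0.11, adjusted p = 0.483) and Cx3cr1 (0.26, adjusted p = 0.208) did not pass. In the authors' deposited table none (0) were higher and 1 was lower, and the call that stood was that of Ms4a6c. Chil3 had an adjusted p of 0.0786 there, and of 0.132 with an intensity trend and robust variance. With slide as a random block 5 were lower, without the dye term 3 were higher and 5 lower, and within the slide of mice 3 and 4 with the pools 2 were higher.

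Ligands that attract or sustain macrophages were mostly lower. Of 8 growth factors and chemoattractants tested, 1 rose and 6 fell, with a median log2 ratio of -0.60. Ccl4 fell by 1.36 ± 0.11 (log2, SE; adjusted p = 0.00029) and Ccl3 fell by 0.88 ± 0.07 (adjusted p = 0.000355), both inflammatory chemokines of macrophages and lymphocytes. Ccl5, a chemokine of T cells and NK cells, fell by 1.26 ± 0.25 (adjusted p = 0.0169, but 0.0954 in the authors' deposited table), and Ccl2, the main attractant of Ccr2-bearing monocytes, fell by 0.84 ± 0.12 (adjusted p = 0.00397). Cx3cl1, the ligand of Cx3cr1, was the gene that rose (0.46, adjusted p = 0.0228), though 0 rose in the authors' deposited table. Csf1, the growth factor of macrophages, was at -0.06 (adjusted p = 0.742).

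The families to which the members belong were set beside them, and beside the 7.74% higher and 8.18% lower over all tested genes. Of 8 leukocyte integrins, ligands and partners, 7 fell and 0 rose, with a median log2 ratio of -0.44. Itgad, which counts among the 7, passed the filter on low signals only through the wild-type channel. Itgb2, the beta chain that pairs with both Itgax and Itgam, fell by 0.71 ± 0.13 (log2, SE; adjusted p = 0.0123), with values of -1.18 to -0.43 over the arrays, and Itgal, the alpha chain of LFA-1, fell by 0.59 ± 0.09 (adjusted p = 0.00499). Of the 8, 3 were lower in the authors' deposited table, where Itgb2 had an adjusted p of 0.0585. Of 17 other tetraspanins, 2 rose and 2 fell, with a median of 0.06: Tspan8 (0.45, adjusted p = 0.0251) and Tspan4 (0.34, adjusted p = 0.0292) rose, and Tspan7 (-0.55, adjusted p = 0.0223) and Tspan13 (-0.45, adjusted p = 0.00528) fell. The call of Tspan4 ended without mouse 1 (adjusted p = 0.0531), median centring gave 6 tetraspanins higher, and the authors' deposited table gave 0 higher and 1 lower.

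Of 5 other galectins tested, 0 passed the limma test, with 2 at an unadjusted p under 0.05. Lgals3bp, a secreted protein that binds galectin-3 and was listed with them, fell by 0.44 (adjusted p = 0.0105), and this call ended in the authors' deposited table. Of 6 other Ly6 family genes, 2 fell: the surface protein gene Ly6a (-0.95, adjusted p = 0.00029) and Ly6c1 (-0.57, adjusted p = 0.00768). The 2 Ly6c1 probes disagreed, since A_55_P1961499 was at 0.80 (adjusted p = 0.0431), and the authors' deposited table gave 1 Ly6 family gene lower. Ly6c1 and Ly6c2 are close paralogs, and how far their transcripts share these probes was not measured. Of 20 lysosome genes, 2 rose and 3 fell, with a median of -0.06, against 7.74% higher and 8.18% lower over all tested genes. The lysosomal regulator Mitf rose by 0.45 ± 0.08 (adjusted p = 0.0124). The proton pump subunit Atp6v1h fell by 0.36 ± 0.06 (adjusted p = 0.00815) and the lysosomal membrane protein Scarb2 fell by 0.23 ± 0.06 (adjusted p = 0.0439). The number of lysosome genes lower was 1 without mouse 1, 3, 4 or 5 and 0 with median centring. It was 6 without the dye term, and the mouse arrays alone gave 9 lower and 4 higher, while the authors' deposited table gave 1 higher and 1 lower.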

How the data were processed

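Liver RNA was hybridised in 2 colours on 6 Agilent mouse arrays: 5 single Fra-1hep mice in Cy5 against a wild-type pool in Cy3, and 1 array of pools with dyes swapped. The series text speaks of 6 single mice, and the sample labels, which give 5, were followed. The authors read the scans with Agilent Feature Extraction, version 10.7 according to the submitters' processing notes and 10.7.3.1 according to the file headers. The deposited scanner files give, per the file headers, median spot and background intensity without normalisation, processed signal intensity (background-subtracted and dye-normalised) and its ratio on a log10 scale. In the series table, the authors deposited log2 ratios of those processed signals, with the dye-swapped array already turned to Fra-1hep over wild type. It differed from the scanner ratios by a median of at most 1.73e-07, and its array medians ran from -0.18 to 0.06.

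Here, median signals were corrected with normexp (offset 50) and normalised within arrays by loess, with control and outlier spots at weight 0, and replicate spots were averaged (limma 3.58.1, data.table package, version 1.17.8, R 4.3.3). Tested probes were marked well above background for Fra-1hep RNA on 3 or more of 5 mouse arrays, or for wild-type RNA on 3 or more of 6 arrays, which left 30110 of 55681 probes. Log2 Cy5 over Cy3 was fitted with lmFit and eBayes on genotype and a dye constant, with mice 2 and 3 averaged (3 residual and 5.11 prior degrees of freedom). P-values were 2-sided and adjusted by Benjamini-Hochberg. The fit was tested on simulated data. The simulated noise had the same spread in the mouse samples and the dye-swapped array, so that assumption was not checked. Accessions were matched to RefSeq gene symbols, which named 26056 probes. Every probe of the members is named, and of each other list, at most 4 called genes with the largest log2 ratio, by the brightest probe, together with a few that did not pass. Cx3cl1, Cxcr2, Mmp8, Itgad and Cd8a fall outside this rule and were chosen after their values were seen. The values of 1 lysosome gene are not reported here. The members and lists were chosen with earlier results of these data known. Alternatives changed the offset, signals, normalisation, filter, dye term, averaging, variance model, slide and mice included. The number of arrays limits the precision.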

Additional observations from a re-analysis of the deposited data

How the results depend on the processing

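The 3455 probes called in the reported analysis became 1618 with Feature Extraction's processed signals, 1624 with the authors' deposited table, 5883 without the dye term and 7553 with the mouse arrays only. Leaving out 1 mouse at a time gave 2876 to 3282. Member probes called higher numbered 2, and became 0 with the processed signals, 0 with the deposited table, 4 without the dye term and 4 with the mouse arrays only, while the member probes called lower went to 1 with the processed signals and 1 with the deposited table. Leaving out 1 mouse gave 2 higher and 2 lower each time. Median centring gave 3 member probes higher, with the Itgam probe A_55_P1977934 added at 0.54 (adjusted p = 0.0416). The added calls without the dye term were Lgals3 at 0.32 (adjusted p = 0.0168) and the Itgam probe A_55_P1977934 at 0.38 (adjusted p = 0.0366), and with the mouse arrays only they were Lgals3 at 0.37 (adjusted p = 0.0121) and Gpnmb, for which no size is given because its wild-type signal stayed near background on all 6 arrays and genotype and dye cannot be told apart there. The Itgam probe A_55_P1977926, which never passed the test, changed sign to -0.00126 with the processed signals and the deposited table, -0.0101 without the dye term and -0.0628 with the mouse arrays only. The cause of these shifts was not tested. Over the 18 alternatives the log2 ratio was 0.43 to 0.67 for Trem2, 0.46 to 0.66 for Cd63, -1.11 to -0.84 for Itgax and -0.58 to -0.40 for Tyrobp. Each ratio was taken within an array, between a Fra-1hep sample and the wild-type pool. Fra-1hep mice could not be paired with single wild-type mice, because all were set against the same pool. The wild-type spread was not measured, and the wild-type level of Gpnmb was below what the arrays could measure.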
